A study of Mus musculus with 48 samples.

Results

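Glucose transport, glycolysis, the fate of pyruvate and the response to low oxygen were followed through 34 genes in 48 single mouse cells. The genes were taken from a list that named them, and all 34 were found among the 23284 gene symbols of the deposited table: 26 glycolysis genes and 8 genes of oxygen sensing and the hypoxia response. The cells came from embryonic stem cells of strain 129P2/OlaHsd in which Mesp1, a transcription factor of nascent mesoderm, can be switched on with doxycycline. They grew as embryoid bodies, suspended aggregates in which stem cells differentiate, and doxycycline at 500 ng/ml was present between days 2.25 and 3.25. On day 4, living cells that excluded propidium iodide were sorted, and a Fluidigm C1 chip isolated them one by one for RNA sequencing. Every cell had the same strain, the same inducible gene and the same treatment, and the labels name no uninduced cells, no second culture and no oxygen treatment. The 48 cells therefore stood as 1 sample: values are described over cells, no p-value was made from them, and the interval of a share reflects the error of counting cells alone.

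Glycolysis splits glucose into pyruvate in the cytosol and yields ATP without oxygen. Most of its steps can be run by several isoenzymes, products of separate genes that differ in regulation and tissue use. Hypoxia-inducible factor 1, whose alpha subunit is encoded by Hif1a, is hydroxylated and degraded when oxygen is present; when oxygen falls it binds short DNA motifs and raises transcription of glucose transporters, glycolytic enzymes, Vegfa and other genes. Pluripotent stem cells and early embryonic mesoderm are known for a strong use of glycolysis.

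Levels are in FPKM, which divides a gene's fragments by its length and by all mapped fragments of the cell, so genes can be set side by side. Detection means a value of at least 1 FPKM. The cells had between 4788 and 7010 detected genes (median 6212), and read depth is unknown. Cells with a higher number in their label had fewer detected genes (Spearman's rho = -0.82 and Pearson's r = -0.82, n = 48; r = -0.79 when the 2 most distant cells are left out; rho = -0.40 and -0.84 within each label range), so values are also given for the 25 cells numbered up to 48 and the 23 cells numbered above 48. What the number stands for is not stated in the labels. The labelled cell type, mesoderm, was checked against its markers: all 8 nascent mesoderm genes examined, Mesp1, T, Eomes, Mixl1, Lhx1, Snai1, Pdgfra and Kdr, were detected in between 22 and 38 cells. Mesp1 is the gene that doxycycline switched on, so its detection is no check of the cell type. Of 4 neurectoderm markers 0 reached 12 cells, and of 6 endoderm markers 2 did, Foxa2 and Gata6, the latter also a mesoderm gene. All 3 core pluripotency genes did, Nanog in 46 cells, Pou5f1 in 26 and Sox2 in 18. Of 14 naive pluripotency markers 4 did, Dppa5a, Zfp42, Klf4 and Tbx3. So did 7 of 8 mesenchymal, 6 of 10 cardiac and lateral plate, 5 of 8 epithelial, 4 of 8 paraxial and 2 of 8 endothelial and blood markers. Over all symbols of the table, 35.8% were detected in 12 or more cells.

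The main glycolytic enzymes were present in nearly every cell at high levels, and 2 of the 5 dedicated hypoxia targets of the set were detected in at least 12 cells. Of the 34 genes, 23 (67.6%) were detected in at least 12 of the 48 cells, and over all symbols of the table the share was 35.8%. All 48 cells held 6 of them (17.6%, against 4.99% of all symbols): Aldoa, Tpi1, Gapdh, Pgam1, Eno1 and Ldha. Among the glycolysis genes 19 of 26 reached 12 cells, and among the hypoxia genes 4 of 8 did: Hif1a, Bnip3, P4ha1 and Egln1. The remaining 11 genes (Hk1, Pfkp, Pfkfb3, Pgam2, Eno2, Pdk1, Slc16a3, Vegfa, Adm, Ankrd37 and Egln3) were detected in 2 to 11 cells. A cell held between 14 and 26 of the 34 genes, with a median of 20. That count was higher in cells with more detected genes of any kind (rho = 0.64).

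**Figure D1:**
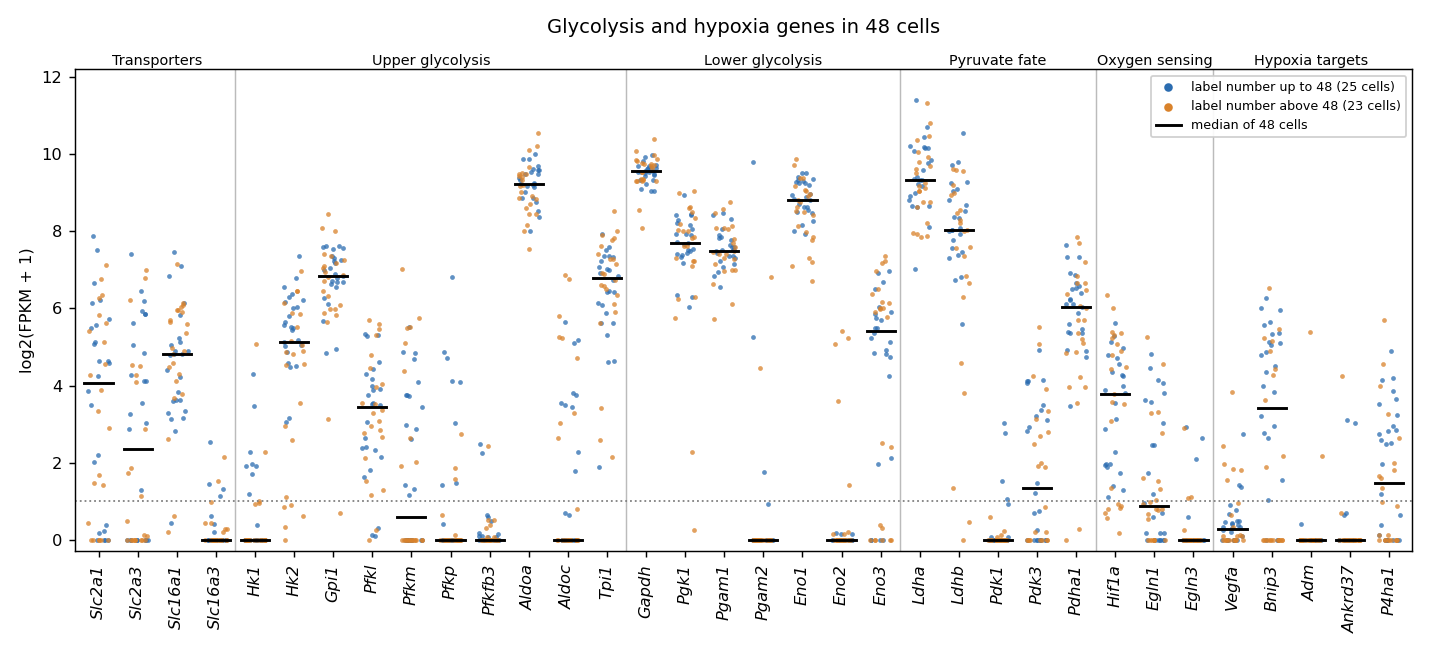
Each point is 1 cell, drawn as log2(FPKM + 1) on the vertical axis for the 34 genes on the horizontal axis, grouped by role; colours give the label number, black bars the median of 48 cells and the dotted line 1 FPKM. Gapdh, Ldha, Aldoa and Eno1 sit highest and are above the line in every cell, while Pfkfb3, Adm and Ankrd37 are above it in 2 or 3 cells.

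Glucose enters through facilitative transporters, of which Slc2a1 (GLUT1) is the widespread form and Slc2a3 (GLUT3) the high-affinity form. Slc2a1 (GRCm38 chromosome 4, 119108711 to 119137983) was listed between 0 and 233 FPKM, with a median of 15.9 FPKM, and was detected in 34 cells (70.8%, exact Clopper-Pearson 95% interval 55.9% to 83.0%). Slc2a3 was listed between 0 and 170 FPKM with a median of 4.46 FPKM and was detected in 28 cells. Either or both were detected in 40 cells, 22 of them with both, 12 with Slc2a1 alone and 6 with Slc2a3 alone, so 8 cells had neither at 1 FPKM. Over all cells Slc2a1 made up 60.0% of the summed FPKM of the pair, but single cells ran from 0% to 100%.

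Monocarboxylate transporters carry lactate and pyruvate across the cell membrane. Slc16a1 (MCT1) was detected in 45 cells and lay between 0.142 and 175 FPKM (median 27.2 FPKM). Slc16a3 (MCT4), the form associated with lactate export from strongly glycolytic cells and a known hypoxia target, was listed at 0 in 33 cells and reached 1 FPKM in 6, with a highest value of 4.84 FPKM. Slc16a1 therefore accounted for 99.0% of the summed FPKM of the pair. Bsg, which encodes the chaperone of these transporters, was found in 48 cells at a median of 76.3 FPKM.

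The upper part of glycolysis traps glucose in the cell and cleaves it into triose phosphates. Hexokinase, which phosphorylates glucose, was represented mainly by Hk2: it was found in 43 cells, at a median of 34.2 FPKM and at most 164 FPKM. Hk1, the form of many adult tissues, was listed at 0 in 34 cells, reached 1 FPKM in 10 and had its highest value, 32.9 FPKM, in the cell labelled C80. No cell had Hk1 without Hk2, and Hk2 took 96.1% of the summed FPKM of the pair. It led in 42 of the 43 cells with at least 1 FPKM in sum. In C80 Hk2 was just above the threshold, at 1.17 FPKM, and Hk1 took 96.6% of the pair. Hk2 was detected in all 25 cells numbered up to 48 and in 18 of the 23 numbered above 48, where detected genes were also fewer.

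Glucose-6-phosphate isomerase, encoded by Gpi1, catalyses the next step. Its median was 114 FPKM and its highest value 349 FPKM, and 47 cells reached 1 FPKM. The remaining cell, labelled C90, listed it at 0.618 FPKM. Gpi1 has no isoenzyme in this set.

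Phosphofructokinase, the main control point of the pathway, was divided among 3 subunit genes. Pfkl, the liver-type subunit, was detected in 43 cells at a low median of 9.87 FPKM (range 0 to 50.7). Pfkm, the muscle-type subunit, was listed at 0 in 24 cells but reached 130 FPKM, with a median of 12.5 FPKM over the 24 cells that had it. Pfkp, the platelet-type subunit, reached 1 FPKM in 11 cells and at most 111 FPKM, and the cell labelled C05 held 50.6% of its summed FPKM. Of the 48 cells, 16 had Pfkl alone, 16 Pfkl with Pfkm, 6 all 3, 5 Pfkl with Pfkp, 2 Pfkm alone and 3 none. Pfkl led in 28 of the 45 cells with at least 1 FPKM in sum, Pfkm in 12 and Pfkp in 5.

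The share of each phosphofructokinase subunit depended on how cells were weighted. Pfkl took 46.1% of the FPKM summed over cells, Pfkm 38.5% and Pfkp 15.4%. As a mean of the cells' own shares Pfkl took 62.2% ± 38.4 (SD over 45 cells). Without the cell labelled C05 the share of Pfkp was 8.48%. With no cell left out, it was 28.2% in cells numbered up to 48, C05 among them, and 1.595% in those above. Pfkfb3, which makes the allosteric activator of phosphofructokinase and is a known hypoxia target, was detected in 3 cells (6.25%, interval 1.31% to 17.2%) at no more than 4.57 FPKM. Pfkfb1, of the same family but outside the set, was detected in 24 cells, at a median of 0.91 FPKM and at most 119 FPKM.

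Aldolase and triose phosphate isomerase complete the upper part. Aldoa (chromosome 7, 126795234 to 126800751) lay between 184 and 1483 FPKM (median 600.0 FPKM), and the middle 50% of cells lay between 460 and 728 FPKM. Aldoc, the brain-type aldolase, reached 1 FPKM in 19 cells and at most 115 FPKM, yet Aldoa led in all 48 cells and took 98.1% of the pair. Tpi1, also in 48 cells, lay between 2.72 and 365 FPKM around a median of 109 FPKM. As a ratio its extremes were 134-fold apart, against 8.08-fold for Aldoa.

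The lower part of glycolysis generates ATP and ends in pyruvate. Gapdh (chromosome 6, 125161715 to 125166467), which carries out the oxidative step, had the highest median of the 34 genes, 751 FPKM, and the smallest coefficient of variation, 0.23. Its range was 270 to 1335 FPKM, so cells differed by 4.95-fold between the extremes. Pgk1 on the X chromosome, the first ATP-producing enzyme, reached 1 FPKM in 47 cells, at a median of 208 FPKM and at most 524 FPKM. Its lowest cell, C95, was listed at 0.184 FPKM of Pgk1 beside 1001 FPKM of Gapdh.

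Phosphoglycerate mutase was almost entirely Pgam1, apart from a few cells. Pgam1 lay between 52.3 and 435 FPKM (median 180.0 FPKM). Pgam2, the muscle form, was listed at 0 in 42 cells and detected in 5: at 880 FPKM in the cell labelled C22, 111 FPKM in C65, 37.4 FPKM in C43, 20.9 FPKM in C81 and 2.39 FPKM in C23. Pgam2 was above Pgam1 in 2 of those cells. Cell C22 held 83.6% of the summed Pgam2, and leaving it out lowered the share of Pgam2 in the pair from 9.95% to 1.795%.

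Enolase was led by Eno1 in every cell. Eno1 lay between 105 and 943 FPKM (median 451 FPKM). Eno3, the muscle form, was in 36 cells at a median of 41.98 FPKM and at most 163 FPKM, and Eno2, the neuronal form, in 5 cells at up to 41.4 FPKM. Of the summed FPKM, Eno1 took 90.2%, Eno3 9.31% and Eno2 0.51%. All 5 cells with Eno2 were numbered above 48, 5 of 23 cells against 0 of 25. The value of Eno1 is uncertain, because the table also lists Gm5506 (Eno1b in RefSeq), a near-identical copy of Eno1, on 2 rows. Summed over them Gm5506 had a median of 286 FPKM, followed Eno1 across cells with rho = 0.99 and took 39.1% of the sum of both, and how reads of the 2 copies were assigned is not known here. Gapdh, Aldoa, Pgk1, Pgam1, Tpi1 and Ldha also have processed pseudogenes in mouse, and how their shared reads were counted is not given in the sources used here.

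Pyruvate kinase, the last step of glycolysis, is encoded by Pkm, which the table lists under its older symbol Pkm2. All 48 cells had it, at a median of 731 FPKM and at most 1422 FPKM. A gene-level value does not separate the M1 and M2 splice forms.

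**Figure D2:**
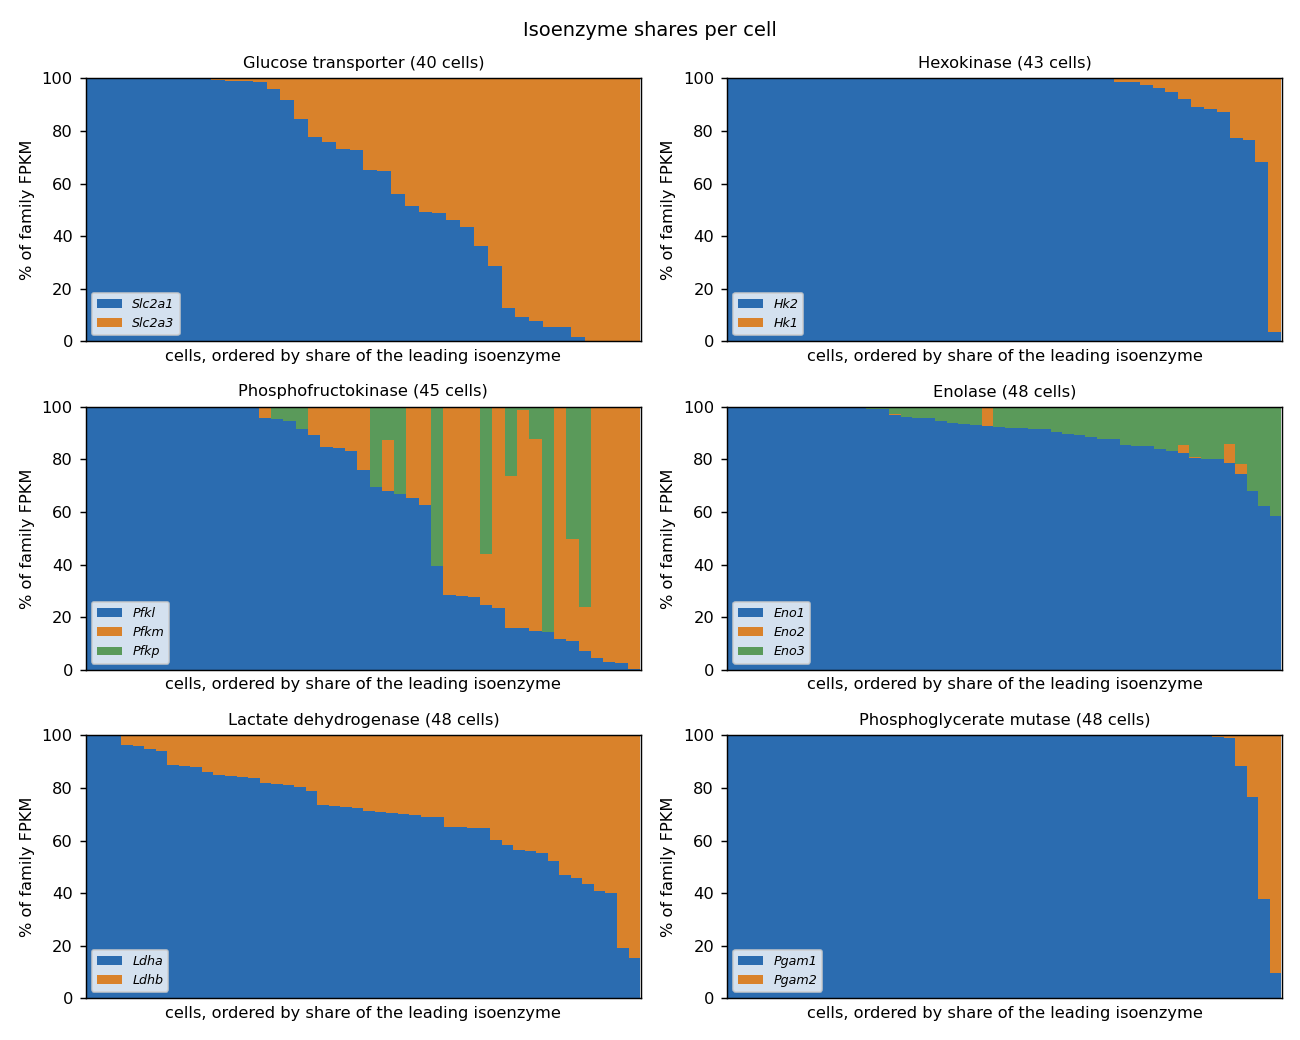
Each bar is 1 cell with at least 1 FPKM in the family, and its colours give the percent of the family's summed FPKM taken by each isoenzyme; cells are ordered by the share of the leading isoenzyme. Hk2, Eno1 and Pgam1 fill most bars, while the glucose transporters and phosphofructokinase run from 0% or nearly 0% to 100% for the leading gene and lactate dehydrogenase from 15.5% to 100%.

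Pyruvate is either reduced to lactate or sent to the mitochondria. Lactate dehydrogenase is a tetramer of A and B subunits, of which the A form favours lactate production. Ldha (chromosome 7, 46841475 to 46855627) lay between 129 and 2709 FPKM in the 48 cells (median 641 FPKM), the widest spread among the genes detected in every cell apart from Tpi1 (20.9-fold between the extremes). Ldhb reached 1 FPKM in 46 cells, at a median of 262 FPKM and at most 1497 FPKM.

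Most cells had more Ldha than Ldhb, and a few had the reverse. Ldha exceeded Ldhb in 41 cells, in 20 of them by more than 3 times, and its share of the pair was 70.1% over all cells, with single cells from 15.5% to 100%. In the other 7 cells Ldhb was higher. The clearest were the cell labelled C05, with 274 FPKM of Ldha and 1497 FPKM of Ldhb, and C32, with 129 and 545 FPKM. In the remaining 5 cells Ldhb was 294 to 884 FPKM beside 243 to 682 FPKM of Ldha. The share of Ldha was 68.0% in cells numbered up to 48 and 72.8% in those above. Across cells the number of detected genes had rho = 0.45 with Ldhb and 0.0026 with Ldha.

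The gate to the mitochondria is the pyruvate dehydrogenase complex, which pyruvate dehydrogenase kinases switch off. Pdha1, its catalytic E1 alpha subunit, was found in 46 cells, at a median of 64.5 FPKM and at most 230 FPKM. Pdk1, the kinase best known as a hypoxia target, reached 1 FPKM in 4 cells and at most 7.17 FPKM, all of them numbered up to 48. Pdk3 reached 1 FPKM in 25 cells, its median was 1.55 FPKM and its highest value 45.2 FPKM, and it made up 94.4% of the pair. At least 1 of these kinases was detected in 27 cells, and the subunit they act on in 46. Pdk2, a further kinase outside the set that was named after its value was seen, was detected in 14 cells and is not part of these shares.

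Oxygen sensing genes were present at modest levels. Hif1a (chromosome 12, 73901375 to 73947530) was above 0 in every cell, between 0.126 and 80.7 FPKM with a median of 12.9 FPKM, and reached 1 FPKM in 41 cells. The 7 cells below 1 FPKM were all numbered above 48, where 16 of 23 cells had it against 25 of 25; the median was 12.95 FPKM in the lower-numbered and 12.8 FPKM in the higher-numbered cells. Egln1 (PHD2), the main hydroxylase that marks the HIF alpha subunits for degradation, was detected in 21 cells, with a range of 0 to 37.2 FPKM and a median of 0.83 FPKM. Egln3 (PHD3), itself induced by hypoxia in many cells, was listed at 0 in 40 cells and detected in 6 at up to 6.56 FPKM. At least 1 of the 2 hydroxylases was detected in 22 cells. Egln2 (PHD1), a further hydroxylase of this family outside the set, was detected in 30 cells at a median of 5.48 FPKM. It is not part of that count. Transcript levels say nothing of the amount of HIF1 alpha protein, which oxygen controls by degradation.

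The dedicated hypoxia targets of the set divided into Bnip3 and P4ha1, found in most cells, and Vegfa, Ankrd37 and Adm, found in few. Bnip3, a mitophagy receptor, was detected in 32 cells, with a range of 0 to 91.2 FPKM and a median of 9.78 FPKM. P4ha1, a collagen prolyl hydroxylase subunit, was found in 26 cells; its median was 1.78 FPKM and its highest value 50.96 FPKM. Vegfa, the endothelial growth factor, was above 0 in most cells but low: it was listed at 0 in 17, detected in 9 and at most 13.3 FPKM, with a median of 0.22 FPKM. At a threshold of 0.1 FPKM it was in 54.2% of cells. Ankrd37 was detected in 3 cells, at 18.1, 7.61 and 7.23 FPKM, and Adm, the vasodilator peptide adrenomedullin, in 2, at 41.2 and 3.49 FPKM. In none of the 8 hypoxia genes of the set did a cell reach 100 FPKM. Together these 8 took a median of 0.0083% of a cell's summed FPKM without short RNAs, against 0.680% for the 26 glycolysis genes. Of 23 further hypoxia genes outside the set, 11 were detected in at least 12 cells, Fam162a, Bnip3l and Higd1a in all 48.

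Of the 34 genes, Bnip3 had the highest correlation with the number of detected genes, rho = 0.56 over 48 cells. It was detected in 22 of the 25 cells numbered up to 48 and in 10 of the 23 above, with medians of 21.8 and 0 FPKM. Among the 23 genes of the set whose medians differed between the 2 label ranges, 17 (73.9%) were higher in the lower-numbered cells, and for all genes detected in 12 or more cells that share was 69.7%. The part of the number of detected genes in the level of Bnip3 was not tested.

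Most of the frequent and most of the rare members had a promoter with a match to a short motif. The core recognised by hypoxia-inducible factors was searched as ACGTG or GCGTG on either strand (CACGT and CACGC on the printed strand) in the 250 bases before each RefSeq start site of build GRCm38.p6; ACGTG and CACGT overlap in CACGTG, the E-box that other factors bind. Of the 34 genes, 33 matched the promoter table. At least 1 promoter held a match in 29 of 33 genes (87.9%), in 20 of 22 genes detected in 12 or more cells and in 9 of 11 rarer ones. Gpi1, Tpi1, Pgam2 and Eno2 had no match. The share was 64.9% over all genes detected in 12 or more cells and 41.5% over all genes of the table, or 38.6% over its 32851 promoters, so the motif is common in promoters of this length. The 250 bases are shown for the hypoxia targets with a match, from the frequent Bnip3 and P4ha1 to the rare Ankrd37 and Adm, and for 2 enzymes long known as targets of the factor, Ldha and Pgk1; capitals mark the matches. Where RefSeq lists several starts, the first is shown; the RefSeq starts of Ankrd37 and Ldha lie within the longer GENCODE gene. The first Vegfa promoter held no match in this window and is not shown. Its other listed promoter held 2 matches, so Vegfa counts among the 29 genes.
Bnip3, chr7:138909507-138909756, minus strand: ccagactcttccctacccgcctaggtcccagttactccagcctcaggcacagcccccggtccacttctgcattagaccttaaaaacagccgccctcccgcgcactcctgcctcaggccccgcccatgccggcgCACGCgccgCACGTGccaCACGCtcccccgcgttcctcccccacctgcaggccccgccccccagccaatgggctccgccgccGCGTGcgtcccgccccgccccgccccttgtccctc
P4ha1, chr10:59323046-59323295, plus strand: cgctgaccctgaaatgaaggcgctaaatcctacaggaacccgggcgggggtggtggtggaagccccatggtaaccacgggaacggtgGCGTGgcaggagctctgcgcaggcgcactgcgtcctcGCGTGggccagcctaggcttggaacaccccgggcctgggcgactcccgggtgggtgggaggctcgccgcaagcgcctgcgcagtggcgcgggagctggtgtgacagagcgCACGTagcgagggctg
Ankrd37, chr8:45999851-46000100, minus strand: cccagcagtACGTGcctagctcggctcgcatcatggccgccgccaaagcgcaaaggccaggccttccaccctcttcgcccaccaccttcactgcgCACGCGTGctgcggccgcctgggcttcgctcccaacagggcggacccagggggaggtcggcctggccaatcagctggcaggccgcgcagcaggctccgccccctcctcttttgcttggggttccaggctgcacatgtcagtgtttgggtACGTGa
Adm, chr7:110627407-110627656, plus strand: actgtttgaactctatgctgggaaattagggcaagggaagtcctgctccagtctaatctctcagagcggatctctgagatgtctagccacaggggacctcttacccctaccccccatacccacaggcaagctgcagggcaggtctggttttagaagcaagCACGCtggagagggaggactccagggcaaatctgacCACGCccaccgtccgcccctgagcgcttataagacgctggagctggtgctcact
Ldha, chr7:46845554-46845803, plus strand: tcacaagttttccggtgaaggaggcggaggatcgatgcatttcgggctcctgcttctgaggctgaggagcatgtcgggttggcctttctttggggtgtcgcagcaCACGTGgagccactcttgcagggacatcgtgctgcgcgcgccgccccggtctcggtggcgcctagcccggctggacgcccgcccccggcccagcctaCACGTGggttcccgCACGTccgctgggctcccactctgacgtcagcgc
Pgk1, chrX:106186850-106187099, plus strand: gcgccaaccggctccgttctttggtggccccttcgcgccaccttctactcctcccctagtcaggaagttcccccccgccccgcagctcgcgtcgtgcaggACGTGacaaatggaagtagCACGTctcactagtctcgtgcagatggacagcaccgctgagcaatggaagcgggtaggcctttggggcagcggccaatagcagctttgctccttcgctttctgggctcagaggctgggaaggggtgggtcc
Ldha and Bnip3, detected in 48 and 32 cells, had 5 matches each, counted on both strands, with 2 copies of CACGTG in Ldha and 1 in Bnip3. P4ha1 and Pgk1, in 26 and 47 cells, had 3 and 2 matches. Ankrd37 and Adm, in 3 and 2 cells, had 4 and 2. A match in a sequence is a description of letters, not of binding.

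Related genes outside the set were read from lists of the same pathways. For comparison, 35.8% of all symbols of the table were detected in at least 12 cells. Of 20 further glycolysis genes, 5 were detected in at least 12 cells, led by Pkm and Bsg in 48 cells each, Bpgm in 28 and Pfkfb1 in 24; 9 were below 1 FPKM in every cell. Of 7 gluconeogenesis genes 2 were, Pck2 in 29 cells and G6pc3 in 25, neither of which is specific to gluconeogenic tissue; 4 were in none. In the pentose phosphate pathway 6 of 7 were, with Taldo1 in 47 cells (median 181 FPKM), Tkt in 45 and Pgd and G6pdx in 42 each. Around pyruvate dehydrogenase 9 of 11 were, with Pdhb in 47 cells (median 114 FPKM), Dld in 45, Pdp2 in 38 and Pdhx in 36. Of 23 further hypoxia genes 11 were, with Fam162a, Bnip3l and Higd1a in 48 cells each at medians of 65.6, 58.0 and 28.6 FPKM and Egln2 in 30 cells.

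Correlations among the genes were mostly small. Spearman's rho was computed for the 253 pairs of the 23 genes detected in at least 12 cells; all values come from the same 48 libraries and share their differences in depth and capture. The median rho was 0.087 over 171 pairs of glycolysis genes, 0.10 over 6 pairs of hypoxia genes and 0.035 over 76 mixed pairs, beside 0.017 over all pairs of the 8336 genes detected as often. A rho of at least 0.3 was reached by 18 of 171 glycolysis pairs (10.5%), 0 of 6 hypoxia pairs and 4 of 76 mixed pairs (5.26%), against 2.89% of all pairs. Among the 8 enzymes detected in 47 or 48 cells, a set chosen after the values were seen, the median was 0.20 and 9 of 28 pairs reached 0.3, while over all genes detected in as many cells the median was 0.039 and 5.19% of pairs did. These abundant enzymes were Aldoa, Tpi1, Gapdh, Pgk1, Pgam1, Eno1, Ldha and Gpi1.

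Aldoa and Eno1 formed the centre of the glycolytic pairs. Their rho was 0.55 (Pearson's r = 0.61 on log2 values, 0.54 without the 2 farthest cells), with 0.37 in cells numbered up to 48 and 0.63 in those above. Each of them reached 0.3 with 7 genes of the set. Some of these pairs differed between the lower- and higher-numbered cells: Aldoa with Ldha (0.03 and 0.58), Eno1 with Gpi1 (0.078 and 0.52) and Eno1 with Pfkl (0.093 and 0.51). Others differed less, such as Aldoa with Tpi1 (0.43 and 0.39) and Eno1 with Gapdh (0.38 and 0.40). The ranges hold only 25 and 23 cells, and differences between them were not tested. Next after Aldoa with Eno1 came Pgam1 with Ldha (rho = 0.42, with 0.43 and 0.40 in the lower- and higher-numbered cells), Aldoa with Ldhb (0.42, with 0.45 and 0.33) and Tpi1 with Pdha1 (0.41, with 0.38 and 0.54). Without the 7 cells that had the fewest genes, rho was 0.43 for Aldoa with Eno1 and 0.29 for both Pgam1 with Ldha and Aldoa with Ldhb. Of the 23 genes, Hk2, Pgk1, Eno3, Pdk3, Egln1 and P4ha1 reached 0.3 with none; the highest rho of Pgk1 was 0.24, with Tpi1, and that of Eno3 0.21, with Eno1.

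None of the 3 transporters reached 0.3 with an enzyme. Slc2a3 had its highest rho with the lactate transporter Slc16a1 (0.40, with 0.52 and 0.40 in the lower- and higher-numbered cells), and Slc2a1 with Hif1a (0.31, with 0.24 and 0.47) and Slc2a3 (0.31, with 0.46 and 0.10). The highest rho of Hif1a was with Pfkm (0.39, with 0.37 and 0.42) and its lowest with Eno3 (-0.32, with -0.17 and -0.39). Hif1a had rho = -0.07 with Ldha and -0.07 with Pgk1, its textbook targets, and 0.24 with Bnip3. Bnip3 reached 0.3 with Slc2a3 (0.32, with 0.45 and 0.12 in the lower- and higher-numbered cells) and Eno1 (0.30, with 0.41 and 0.24). Given the number of detected genes, its rho was 0.20 with Slc2a3 and 0.22 with Eno1.

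**Figure D3:**
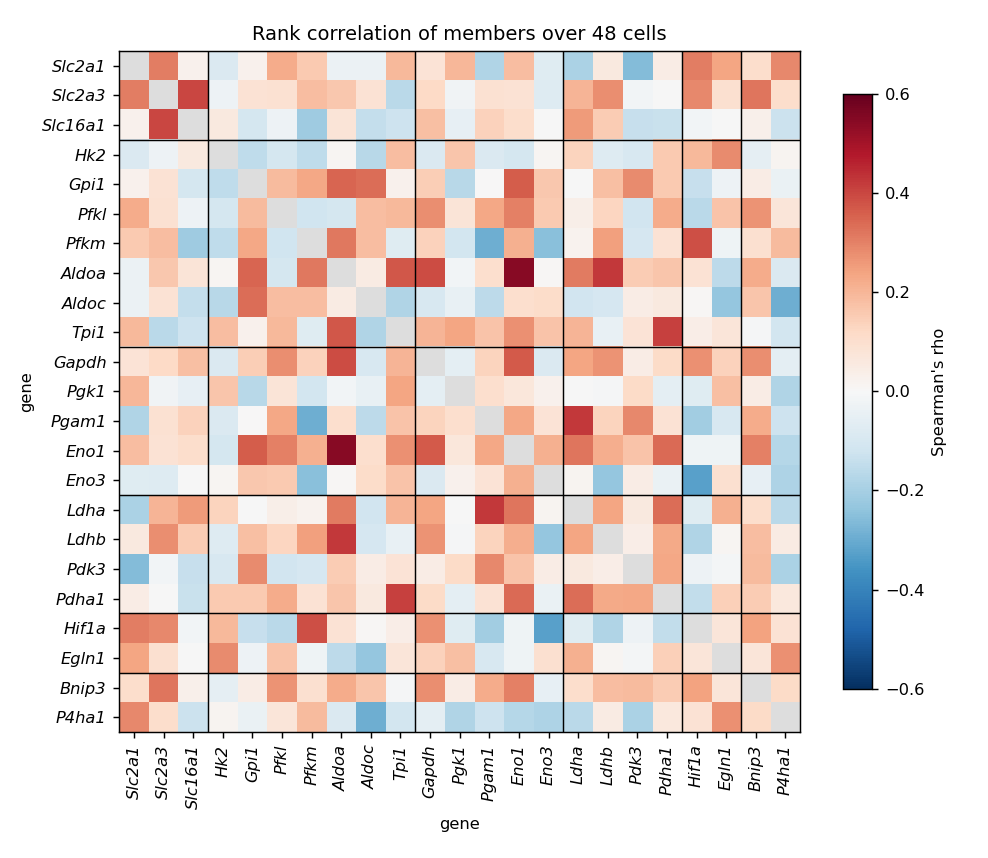
Each square gives Spearman's rho over 48 cells for 2 of the 23 genes detected in at least 12 cells, ordered by role with black lines between roles, from blue (negative) to red (positive); the diagonal is grey. The darkest square is Aldoa with Eno1 (0.55), and the rows of Hk2, Pgk1, Eno3, Pdk3, Egln1 and P4ha1 hold no value of 0.3 or more.

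Each cell was also given a score per pathway. The glycolysis score of a cell was the mean of the standardised log2(FPKM + 1) values of the 19 glycolysis genes detected in at least 12 cells, and the hypoxia score that of Hif1a, Egln1, Bnip3 and P4ha1. The scores were related with rho = 0.32 (r = 0.22, 0.27 without the 2 farthest cells). The number of detected genes had rho = 0.38 with the glycolysis and 0.42 with the hypoxia score, and given that number the relation was 0.19; it was 0.40 in cells numbered up to 48 and 0.085 in those above. Of the 4 hypoxia genes, Bnip3 had rho = 0.43 with the glycolysis score (0.28 given the number of detected genes), Egln1 0.15, Hif1a 0.081 and P4ha1 -0.11. The 11 further hypoxia genes detected in at least 12 cells had rho = 0.37 with the glycolysis score (0.32 given the number of detected genes, 0.42 and 0.36 in the lower- and higher-numbered cells) and 0.14 with the hypoxia score. Among 8313 genes outside the set 6.68% reached 0.3 with the glycolysis score.

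The cell labelled C93 had the highest levels of several enzymes. It had the highest glycolysis score (0.86) and the highest value of 5 of the 23 genes: Aldoa at 1483, Gapdh at 1335, Gpi1 at 349, Pdha1 at 230 and Pdk3 at 45.2 FPKM. It also had 2575 FPKM of Ldha, second to the 2709 FPKM of the cell labelled C42, and the glycolysis genes took 1.20% of its summed FPKM. Yet it had only 4997 detected genes and was among the 7 cells with the fewest, whose median glycolysis score was -0.59, against 0.079 in the other 41 cells. Of these 7, C93 and C89 (0.41) were above 0 and the other 5 lay between -1.11 and -0.47, so they held both ends of the range.

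**Figure D4:**
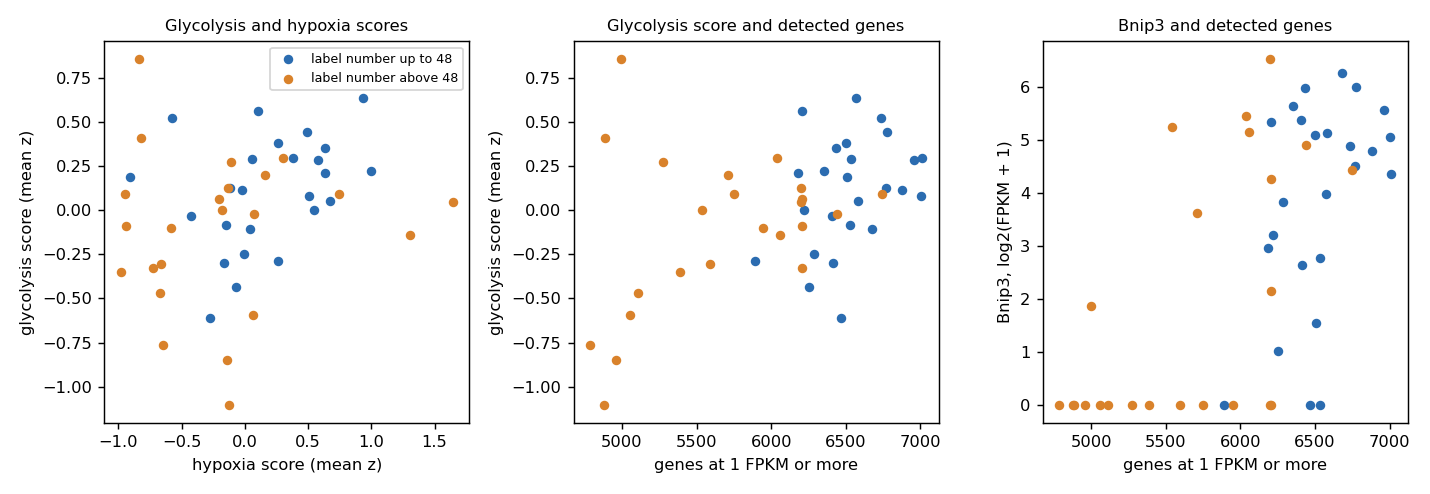
Each point is 1 cell, coloured by label number. The left panel sets the glycolysis score against the hypoxia score (rho = 0.32), the middle panel against the number of genes at 1 FPKM or more (rho = 0.38, with cell C93 at the upper left) and the right panel sets log2(FPKM + 1) of Bnip3 against that number (rho = 0.56).

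Genes outside the set with the pattern most like the glycolysis score were, over 48 cells and 8313 genes, Gm5506 (rho = 0.69), Pkm2 (0.67), Nanog (0.58), Ubtf (0.55) and Pou5f1 (0.55), where the median gene had 0.060. Gm5506 is the near-identical copy of Eno1, which is part of the score, and Pkm2 is pyruvate kinase itself, with rho = 0.76 in the lower- and 0.76 in the higher-numbered cells. Nanog and Pou5f1 are core pluripotency factors, and the value of Nanog was 0.58 in the lower- and 0.49 in the higher-numbered cells. Most like Ldha were Emb (0.63), Dgkk (0.58), Hnrnph3 (0.58), H2-K1 (0.57) and Fgf5 (0.57). In the lower- and higher-numbered cells the values were 0.76 and 0.50 for Emb, 0.73 and 0.42 for Dgkk and 0.48 and 0.62 for Hnrnph3. They were 0.60 and 0.52 for H2-K1 and 0.75 and 0.40 for Fgf5. Dgkk, H2-K1 and Fgf5 were detected in only 16, 17 and 15 cells. Emb encodes embigin, a partner protein of monocarboxylate transporters, and was detected in 47 cells. These genes were picked as the highest of 8313, and their values are a description only.

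The glycolysis score had a higher rho with core than with naive pluripotency genes; the difference was not tested. With the score of Pou5f1, Sox2 and Nanog its rho was 0.54 (r = 0.49, and 0.49 without the 2 farthest cells), 0.54 in cells numbered up to 48, 0.51 in those above and 0.46 given the number of detected genes. Pou5f1 had 0.55 and Nanog 0.58, but Sox2, listed at 0 in 25 cells, 0.11. With Dppa5a, Zfp42, Klf4 and Tbx3, the naive genes in at least 12 cells, it was 0.12, and -0.12 given the number of detected genes, while those genes had rho = 0.51 with the hypoxia score (0.43 and 0.16 within the label ranges) and 0.56 with the number of detected genes. With the 5 further glycolysis genes it was 0.54, with 6 pentose phosphate genes 0.41 (0.21 in the lower- and 0.76 in the higher-numbered cells), and with nascent mesoderm genes 0.0022 (-0.22 and 0.23 within the label ranges). With 7 mesenchymal genes it was -0.34 (-0.40 and -0.27 within the label ranges) and with 6 cardiac and lateral plate genes -0.29 (-0.42 and -0.11). Epithelial genes had 0.38 over all cells, but 0.63 in the lower- and -0.0044 in the higher-numbered cells. With cell cycle genes of S phase it was 0.17, and of G2 and M phase 0.093. In all, 52 such relations were computed.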

How the data were processed

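Single-cell RNA sequencing of 48 mouse cells was analysed from 1 deposited table with a column per cell. Its values were treated as FPKM made by the authors: no unit stands in the file, and FPKM is what Cufflinks 2.2.1.0 reports, a tool listed in the submitters' processing notes. Those notes also list TopHat 0.7, CASAVA 1.8.2 and mm10, without saying what each did. The gene annotation, any filter and any scaling between cells are not stated. Rows of 240 symbols found on several rows were summed, and 5 list genes were found under older symbols. Columns were matched to cells by title, and the number in the title was used as a technical split at 48; what it stands for is not stated in the labels. No cell was removed. Without counts, depth is unknown and doublets were not called, so 2 cells caught together would go unseen.

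Computed here were detection at 1 FPKM or more with exact Clopper-Pearson 95% intervals, isoenzyme shares of summed FPKM, Spearman correlations of genes detected in at least 12 cells without 777 short RNA symbols, and scores from log2(FPKM + 1). The labels give 1 group, so nothing was tested. The correlation procedure was tested on simulated data with planted relations. There each gene's values were shuffled over cells, which removes differences between cells that genes share. That trial therefore checks the computation only and cannot show how such shared differences affect the correlations. The members and lists were chosen with earlier results of these data known. Named were all members, up to 4 genes per further list by cells detected, and the 5 genes most like the glycolysis score and Ldha. Coordinates are from GENCODE M21 (GRCm38), promoters from RefSeq. Alternatives were thresholds of 0.1 and 10 FPKM, a pseudocount of 0.1, members in at least 36 cells, rescaling without short RNAs, correlation given the number of detected genes, the 2 label ranges, and leaving out 7 cells with few genes (5189 or fewer, 3 median absolute deviations below the median). The label ranges for detection and isoenzymes, and the 7 cells for isoenzymes and scores, were chosen after seeing the data. Python 3.11.15, numpy 2.4.6, pandas 2.3.3, scipy 1.17.1 and matplotlib 3.10.9 were used.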

Additional observations from a re-analysis of the deposited data

How the results depend on the processing

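The number of genes detected in at least 25% of cells was 20 to 28 over 5 alternatives, against 23. The number detected in all cells, 6, was 10 at 0.1 FPKM, 10 without the 7 cells with few genes and 12 in cells numbered up to 48. At 10 FPKM 2 hypoxia genes reached 25% of cells, against 4. Over 5 alternatives the share of the leading isoenzyme ranged most widely for Pfkl, from 43.03% to 62.2%, and Pgam1, from 84.2% to 98.2%; no error of a pooled share was available to judge these moves. Correlations were counted as moved at a difference over 0.1. The median rho of mixed pairs, 0.035, was -0.072 among members in 36 or more cells, and that of hypoxia pairs, 0.10, was -0.021 in cells numbered up to 48. The rho of the 2 scores, 0.32, was 0.19 given the number of detected genes and 0.085 in cells numbered above 48. With the number of detected genes, the glycolysis score had 0.27 in cells above 48, against 0.38, and the hypoxia score 0.0069 in cells up to 48, 0.28 in cells above and 0.30 without the 7 cells, against 0.42. The cause was not tested. Of 45 alternatives to these medians and score correlations 37 stayed within 0.1, and of 46 for single pairs 36 did; the relation with core pluripotency genes ranged from 0.46 to 0.55. For single genes, 44 of 170 alternative shares of cells left the main interval. Hypoxia pairs gave no value among members in 36 or more cells, since only Hif1a remained. No paired analysis was possible because there is 1 group and no test. Depth is unknown, so a gene listed at 0 may be expressed.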
